A study of Mus musculus with 8 samples.

Results

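The genes of sterol and fatty acid synthesis are described here, from the transcription factors that drive both pathways to the enzymes of each step. The set of 31 genes was chosen by name, with earlier results of these data known. Of these, 30 were measured by at least 1 probe set that the platform annotation assigns to a single symbol, out of 18193 genes with such a probe set in all, and the probe set with the highest mean signal stood for the gene. All 30 passed the filter on low signals (a mean signal of at least 110), as did 10989 genes in all. Acat2, which encodes a cytosolic acetyl-CoA acetyltransferase, had no such probe set, so its level was not analysed here. The samples were rib chondrocytes, the cells of cartilage, from FVB mouse embryos at stage E18.5, freed from dissected rib cages with collagenase and trypsin. Control samples are labelled wild type, and the other samples carry a Hoxc8 transgene, Hoxc8 being a homeobox gene that patterns the trunk skeleton. The promoter of the transgene, the number of embryos per sample and their sex are not given in the sources used here. Each of 4 litters, numbered 1 to 4 here, gave 1 control and 1 transgenic sample, so that 8 arrays were compared.

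Cells make cholesterol from acetyl-CoA by way of mevalonate, isoprenoid units, squalene and lanosterol, and they make fatty acids from acetyl-CoA by way of malonyl-CoA. The SREBP transcription factors, encoded by Srebf1 and Srebf2, drive the genes of both routes when sterols in the endoplasmic reticulum membrane are scarce. Insig proteins retain the factors there when sterols are plentiful. In the skeleton, inherited defects of the late sterol enzymes cause malformations, and sterols also act on the hedgehog receptor Smoothened, through which growth plate chondrocytes respond to Indian hedgehog.

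The promoters of 24 of the 31 genes were found in a RefSeq table (build GRCm38.p6), as windows of 300 bases from 250 before to 50 after a start of the gene. Srebf1 and Dhcr7 had 3 windows each, Pmvk had 2 and the others 1. A gene was counted for a motif when any of its windows held it. The windows of 4 genes are shown because their transcripts stand for the patterns described below: Hmgcs1, Msmo1 and Insig1, which were highest in litter 2, and Fasn, which was lowest in litter 4. Apart from Hmgcs1, which holds the letters searched for as a sterol regulatory element, these windows were picked after the values were seen. Each is written from 5′ to 3′ on the strand of its gene. Capitals mark the sterol regulatory element TCACNCCAC, the NF-Y motif CCAAT, the Sp1 motif GGGCGG and the E-box CACGTG, each on either strand, so that CCAAT on the other strand reads ATTGG.
Hmgcs1 (chr13:119690101-119690400, + strand): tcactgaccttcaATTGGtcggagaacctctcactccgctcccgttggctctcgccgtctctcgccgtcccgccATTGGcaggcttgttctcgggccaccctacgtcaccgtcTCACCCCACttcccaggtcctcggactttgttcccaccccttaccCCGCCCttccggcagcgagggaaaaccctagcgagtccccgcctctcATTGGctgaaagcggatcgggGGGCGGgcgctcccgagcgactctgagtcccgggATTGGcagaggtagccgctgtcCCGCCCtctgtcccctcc
Msmo1 (chr8:64733529-64733828, - strand): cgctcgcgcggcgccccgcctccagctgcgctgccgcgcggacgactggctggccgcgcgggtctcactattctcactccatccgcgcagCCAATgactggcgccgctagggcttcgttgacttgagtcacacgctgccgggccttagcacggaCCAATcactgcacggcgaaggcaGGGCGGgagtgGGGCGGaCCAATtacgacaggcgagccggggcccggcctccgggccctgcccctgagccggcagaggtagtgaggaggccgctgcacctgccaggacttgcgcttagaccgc
Insig1 (chr5:28071162-28071461, + strand): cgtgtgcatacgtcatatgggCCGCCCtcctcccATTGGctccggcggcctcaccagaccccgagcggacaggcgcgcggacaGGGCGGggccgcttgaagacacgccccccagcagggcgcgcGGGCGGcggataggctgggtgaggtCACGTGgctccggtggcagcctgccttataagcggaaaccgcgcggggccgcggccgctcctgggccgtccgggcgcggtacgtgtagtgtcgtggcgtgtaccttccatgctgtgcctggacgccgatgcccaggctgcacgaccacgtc
Fasn (chr11:120824498-120824797, - strand): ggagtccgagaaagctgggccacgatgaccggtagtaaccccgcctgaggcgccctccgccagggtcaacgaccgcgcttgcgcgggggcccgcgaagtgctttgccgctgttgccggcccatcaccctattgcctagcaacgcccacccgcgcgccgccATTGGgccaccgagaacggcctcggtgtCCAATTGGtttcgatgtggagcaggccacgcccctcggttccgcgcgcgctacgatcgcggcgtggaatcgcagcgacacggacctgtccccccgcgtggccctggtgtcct

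The letters TCACNCCAC occurred only in the Hmgcs1 window among the 24 genes, 137 bases before the start site, and in 1.44% of the 27025 genes of the table. CCAAT was frequent: it stood in a window of 20 of the 24 genes (83.3%), against 41.1% of all genes in the table. The genes with no CCAAT in any window were Acaca, Acat2, Elovl6 and Fads2. GGGCGG stood in a window of 19 of the 24 (79.2%), against 38.2%. CACGTG stood in windows of Dhcr7, Elovl5, Hsd17b7, Insig1 and Sc5d, which is 20.8% against 8.09%. The CCAAT matches of Hmgcs1 began 237, 176 and 45 bases before the start site and 10 bases after it, all on the opposite strand, and those of Fasn lay 90, 62 and 59 bases before it, the last pair overlapping. These counts describe the letters in the windows and were not tested. Only exact matches were counted, so an element with other letters would be missed.

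The arrays were alike in scale, with median signals from 107 to 121, and 8 arrays set the limit of precision here. The 8 chondrocyte markers, among them Col2a1 and Acan, all passed the filter and summed to 175517 to 235808 in control and 175712 to 203483 in transgenic samples. None of the 5 liver markers measured passed it, and of the 7 adipocyte markers measured Fabp4 alone did, while Adipoq stayed between 5.58 and 78.6. The Hoxc8 signal itself was 3519 ± 501 (SD, n = 4) among controls against 3885 ± 369 among transgenic embryos, which did not pass (0.15 log2, SE 0.12; limma, adjusted p = 0.9998).

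The first comparison asks whether levels of these genes differed between litters, with genotype in the model. Levels differed between litters for 17 of the 30 genes (56.7%) by limma's moderated F-test at an adjusted p of 0.05, where 10.9% of all 10989 genes did. Of the 17, 15 had their highest litter mean in litter 2, from 1.13-fold (Scd2) to 1.96-fold (Stard4) over the mean of the other litters. In litter 4, 13 of the 17 were lowest, Fasn among them, and 11 had both. An unadjusted p under 0.05 was found for 22 of the 30 (73.3%), against 29.9% of all genes. Among the 1194 genes called in all, 34.4% were highest in litter 2, 42.2% lowest in litter 4 and 21.1% both. The calls need the intensity trend in the variance model: without it 0 genes of 10989 passed, members included, and an unadjusted p under 0.05 was found for 17 of the 30 (56.7%) and for 20.7% of all genes, the smallest adjusted p of a member being 0.0842. A litter stands for everything its samples shared, which may include the dam, dissection, digestion and labelling, and these cannot be told apart.

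**Figure D1:**
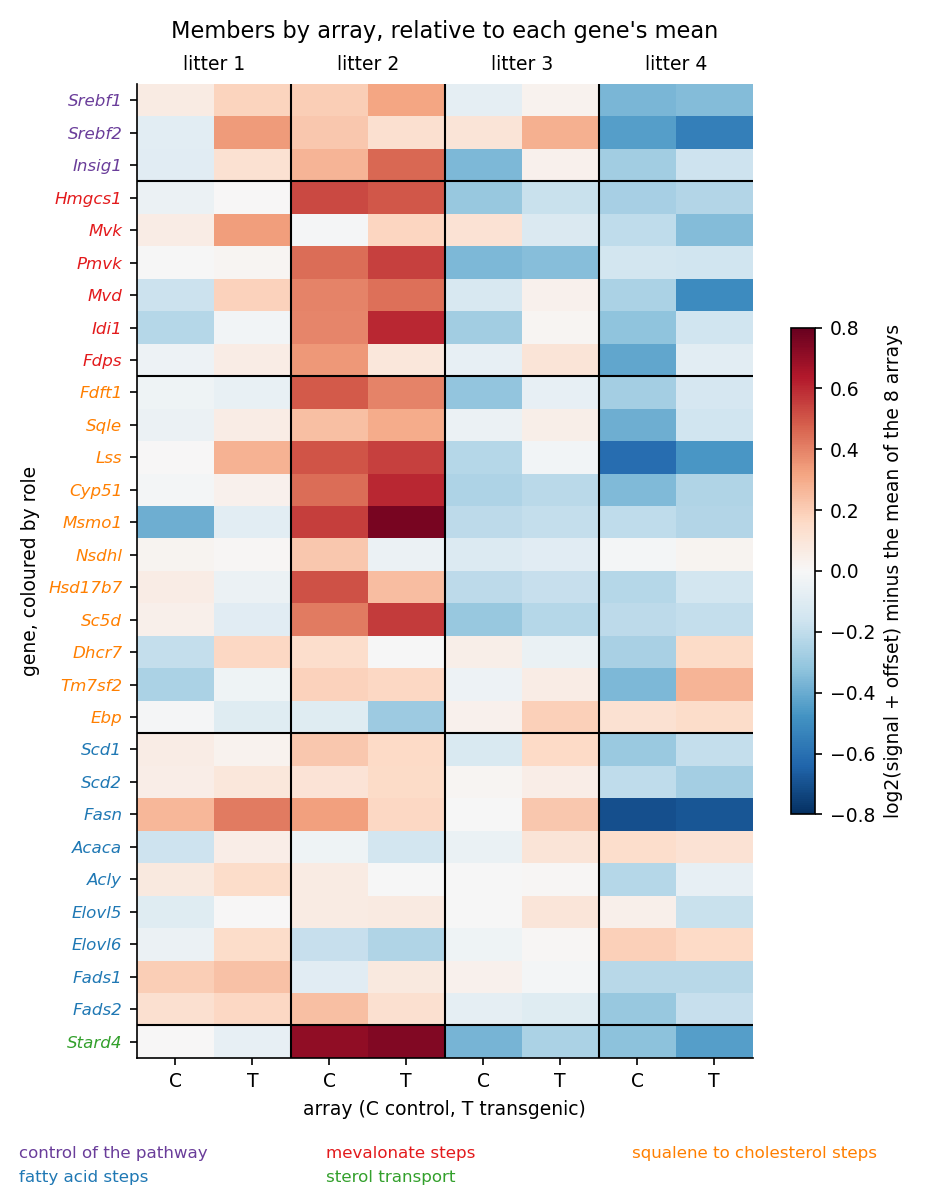
Each row is a gene (coloured by role) and each column an array (C control, T transgenic, grouped by litter); colour gives log2(signal + 22.2) minus the mean of that gene over the 8 arrays. The columns of litter 2 are red for most genes of sterol synthesis and for Stard4, and the columns of litter 4 are blue for most genes, deepest for Fasn and Lss.

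Over all 30 genes, called or not, litter 2 held the highest litter mean of 22 (73.3%, against 24.5% of all genes) and litter 4 the lowest of 21 (70.0%, against 29.0%). The reverse was seen for Elovl6, Ebp and Acaca, which were lowest in litter 2 (32.2% of all genes) and highest in litter 4 (32.2% of all genes). For Acaca and Elovl6 this depended on the probe set: the other Acaca probe set had litter 2 at 0.40 and litter 4 at -0.39 log2 against the other litters, and the other probe sets of Elovl6 had litter 2 at 0.07 and 0.13. Apart from any model, both arrays of litter 2 lay above the 6 others for 16 of the 30 genes (53.3%), against 8.83% of all genes, and below them for Elovl6 and Ebp (6.67%, against 10.8%). Both arrays of litter 4 lay below the 6 others for 13 genes (43.3%), against 11.4%, and above them for Elovl6 and Acaca (6.67%, against 13.2%). For litter 3 the counts were 0 above (against 8.59%) and 3 below (10.0%, against 7.87%), and for litter 1 they were 2 above, Acly and Fads1 (6.67%, against 3.26%), and 0 below (against 2.18%). In 25 of the 30 genes litter 2 was above and litter 4 below the mean of the other litters, a pattern that 29.3% of all genes showed. These counts were chosen after the litter values were seen.

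The regulators differed between litters in all 3 cases, where 10.9% of all genes did. Insig1, the sterol-sensing retention protein and itself a target of SREBP, gave signals of 6390, 8209, 5296 and 5607 in the control samples of litters 1 to 4 and 7380, 9346, 6949 and 6066 in the transgenic samples. Both arrays of litter 2 lay above the 6 others, 1.40-fold over the mean of the other litters (0.49 log2, SE 0.08; limma F-test adjusted p = 0.00860). Srebf1, whose main products act on genes of fatty acid synthesis, gave 2179, 2390, 1976 and 1608 in the control samples of litters 1 to 4 and 2361, 2597, 2126 and 1630 in the transgenic samples. Litter 2 lay above and litter 4 below all others, with the other litters 1.39-fold over litter 4 (adjusted p = 0.0125). Srebf2, whose product acts mainly on genes of sterol synthesis, gave 893.5, 1104, 1019 and 691.6 in the control samples of litters 1 to 4 and 1209, 1040, 1161 and 641.1 in the transgenic samples. Its 2 values in litter 4 were the lowest, the other litters standing 1.58-fold higher (adjusted p = 0.0261), and litter 2 lay within the range of litters 1 and 3. A dimmer probe set of Srebf2 had an adjusted p over probe sets of 0.331, with the other litters 1.15-fold over litter 4. Srebf2 was not called when probe sets were averaged.

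In the mevalonate steps, 4 of the 6 genes measured differed between litters (66.7%, against 10.9% of all genes). Hmgcs1, the synthase that makes HMG-CoA, gave 17768, 26480, 14844 and 15267 in the control samples of litters 1 to 4 and 18386, 25962, 16200 and 15609 in the transgenic samples. Litter 2 stood 1.61-fold over the others (0.69 log2, SE 0.07; limma F-test adjusted p = 0.000565), and its genotypes differed little. The other 4 probe sets of Hmgcs1 put litter 2 higher by 1.36-fold to 1.73-fold, and 3 of them passed over all probe sets. Idi1, the isomerase of isopentenyl diphosphate, gave 3908, 6034, 3785 and 3674 in the control samples of litters 1 to 4 and 4517, 6979, 4638 and 4104 in the transgenic samples, so that litter 2 was 1.58-fold over the others (adjusted p = 0.00170). Pmvk, the phosphomevalonate kinase, had litter means of 876, 1242, 680 and 783 (adjusted p = 0.00685), and Mvd, the diphosphomevalonate decarboxylase, 593, 791, 567 and 446 (adjusted p = 0.0431). Both were highest in litter 2. The dimmer probe set of Mvd put litter 2 1.40-fold over the others and did not pass (adjusted p over probe sets 0.0582). Fdps, which makes farnesyl diphosphate, had means of 5855, 6796, 5904 and 4917 and did not pass (adjusted p = 0.101). Mvk, the mevalonate kinase and the dimmest gene of the set, ranged from 253.3 to 418.5 and did not pass (adjusted p = 0.323).

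From squalene to cholesterol, 7 of 11 genes differed between litters (63.6%, against 10.9% of all genes). Msmo1, the sterol C4 methyl oxidase, gave 4045, 7819, 4591 and 4611 in the control samples of litters 1 to 4 and 5024, 9038, 4656 and 4522 in the transgenic samples. Both values of litter 2 lay far above the other 6, which spanned 4045 to 5024, and the ratio to the other litters was 1.84-fold (0.88 log2, SE 0.09; limma F-test adjusted p = 0.000648). Its other probe set gave 2.03-fold. Cyp51, the lanosterol demethylase, gave 3372, 4661, 2871 and 2664 in the control samples of litters 1 to 4 and 3493, 5204, 2935 and 2885 in the transgenic samples, and litter 2 stood 1.62-fold over the others (adjusted p = 0.00110). Sqle, the squalene epoxidase that oxygenates squalene, gave 2503, 3062, 2498 and 1969 in the control samples of litters 1 to 4 and 2696, 3174, 2674 and 2307 in the transgenic samples. It was highest in litter 2 (1.28-fold) and lowest in litter 4 in both genotypes (adjusted p = 0.0266). Lss, which closes the rings to lanosterol, had litter means of 1130, 1476, 933 and 696 (adjusted p = 0.00195), so that it combined a high litter 2 with a low litter 4. The dimmer probe set of Lss put litter 2 1.40-fold over the others and did not pass (adjusted p over probe sets 0.0698). Fdft1, the squalene synthase, stood at 4849, 6826, 4404 and 4356 (adjusted p = 0.00644), and Sc5d, the sterol C5 desaturase, at 2535, 3616, 2138 and 2238 (adjusted p = 0.00384). Both were highest in litter 2, at 1.51-fold and 1.57-fold over the others. The dimmer probe set of Fdft1 passed as well (1.35-fold), but that of Sc5d showed no such difference (0.973-fold, adjusted p over probe sets 0.993), and Sc5d was not called when probe sets were averaged.

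The other 5 genes from squalene to cholesterol comprised Hsd17b7, which passed, and 4 that did not. Hsd17b7, the sterol 3-keto reductase, gave 844.6, 1163, 699.0 and 688.2 in the control samples of litters 1 to 4 and 782.8, 966.7, 711.5 and 730.9 in the transgenic samples. Litter 2 was highest, at 1.42-fold (limma F-test adjusted p = 0.0458), but none of its 3 other probe sets passed, and the adjusted p of the same probe set over probe sets was 0.0505. With probe sets averaged, Hsd17b7 was not called. Nsdhl, which acts in the removal of the C4 methyl groups, gave 1605, 1840, 1462 and 1566 in the control samples of litters 1 to 4 and 1589, 1530, 1484 and 1604 in the transgenic samples. Its arrays overlapped between litters 1, 2 and 4 (adjusted p = 0.653). Ebp, the sterol isomerase, gave 1089, 1022, 1124 and 1191 in the control samples of litters 1 to 4 and 1024, 891.3, 1250 and 1213 in the transgenic samples, with its lowest values in litter 2, and did not pass (adjusted p = 0.227). Dhcr7, the last reductase of the pathway, ranged from 679.3 to 919.2 (adjusted p = 0.934), and Tm7sf2, a sterol C14 reductase, gave 315.5, 435.1, 369.5 and 291.2 in the control samples of litters 1 to 4 and 370.8, 429.5, 397.7 and 462.5 in the transgenic samples (adjusted p = 0.604). Neither separated the litters.

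Among the 9 fatty acid genes Fasn and Scd2 differed between litters (22.2%, against 10.9% of all genes). Scd2 was not called without the filter on low signals. Fasn, the fatty acid synthase, gave 3761, 3912, 3115 and 1907 in the control samples of litters 1 to 4 and 4169, 3507, 3618 and 1930 in the transgenic samples. Litter 4 was the low one, and the other litters stood 1.90-fold above it (litter 4 minus the others -0.93 log2, SE 0.09; limma F-test adjusted p = 0.000611). Litter 1 was the highest, so that Fasn was not among the genes led by litter 2. Scd2, a stearoyl-CoA desaturase that makes monounsaturated fatty acids, gave 26524, 27609, 25912 and 22222 in the control samples of litters 1 to 4 and 27258, 28464, 26571 and 21206 in the transgenic samples. The difference was small on this bright probe set, the other litters being 1.25-fold over litter 4 (adjusted p = 0.0399), and larger on its dimmer probe sets, at 1.68-fold and 2.62-fold (adjusted p over probe sets 0.00102 and 5.48e-05). Scd1, the desaturase paralog, gave 6866, 7656, 6052 and 5370 in the control samples of litters 1 to 4 and 6713, 7357, 7356 and 5772 in the transgenic samples and did not pass (adjusted p = 0.0679), while its dimmer probe set did, with the other litters 1.84-fold over litter 4 (adjusted p over probe sets 0.00233). For both genes the size of the litter difference thus depended on the probe set.

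Acly, which makes cytosolic acetyl-CoA from citrate, gave 5320, 5285, 5026 and 4299 in the control samples of litters 1 to 4 and 5599, 5032, 5083 and 4826 in the transgenic samples (limma F-test adjusted p = 0.257). Acaca, the carboxylase that makes malonyl-CoA, gave 948.3, 1041, 1027 and 1179 in the control samples of litters 1 to 4 and 1110, 962.1, 1147 and 1158 in the transgenic samples. It was highest in litter 4 and did not pass (adjusted p = 0.553). Elovl6, an elongase of saturated fatty acids, had litter means of 2354, 1952, 2250 and 2564, again highest in litter 4 (adjusted p = 0.113). Elovl5, an elongase of polyunsaturated fatty acids, ranged only from 3068 to 3712 (adjusted p = 0.670). The desaturases Fads1 and Fads2 were lowest in litter 4, at 3089 and 1541, against 3598 to 4185 and 1725 to 2082 in the other litters (adjusted p = 0.0604 and 0.0569), and fell short of the threshold. A dimmer probe set of Fads1 did pass, with litter 2 1.51-fold over the others (limma F-test adjusted p over probe sets 0.0473).

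Stard4, a carrier protein that moves sterol between membranes, had the smallest p of the set. It gave 3777, 6179, 2901 and 2998 in the control samples of litters 1 to 4 and 3599, 6308, 3161 and 2763 in the transgenic samples. Litter 2 stood 1.96-fold over the others (0.97 log2, SE 0.08; limma F-test adjusted p = 0.000197). Its other probe sets gave 1.27-fold and 1.10-fold and did not pass (adjusted p over probe sets 0.0788 and 0.448). Over the whole set, 20 genes had more than 1 probe set in the test. Of their 31 other probe sets, 11 passed between litters, where 2027 of all 22519 probe sets tested did. Of the 31, 22 had the sign of the representative probe set for litter 2 and 25 for litter 4.

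**Figure D2:**
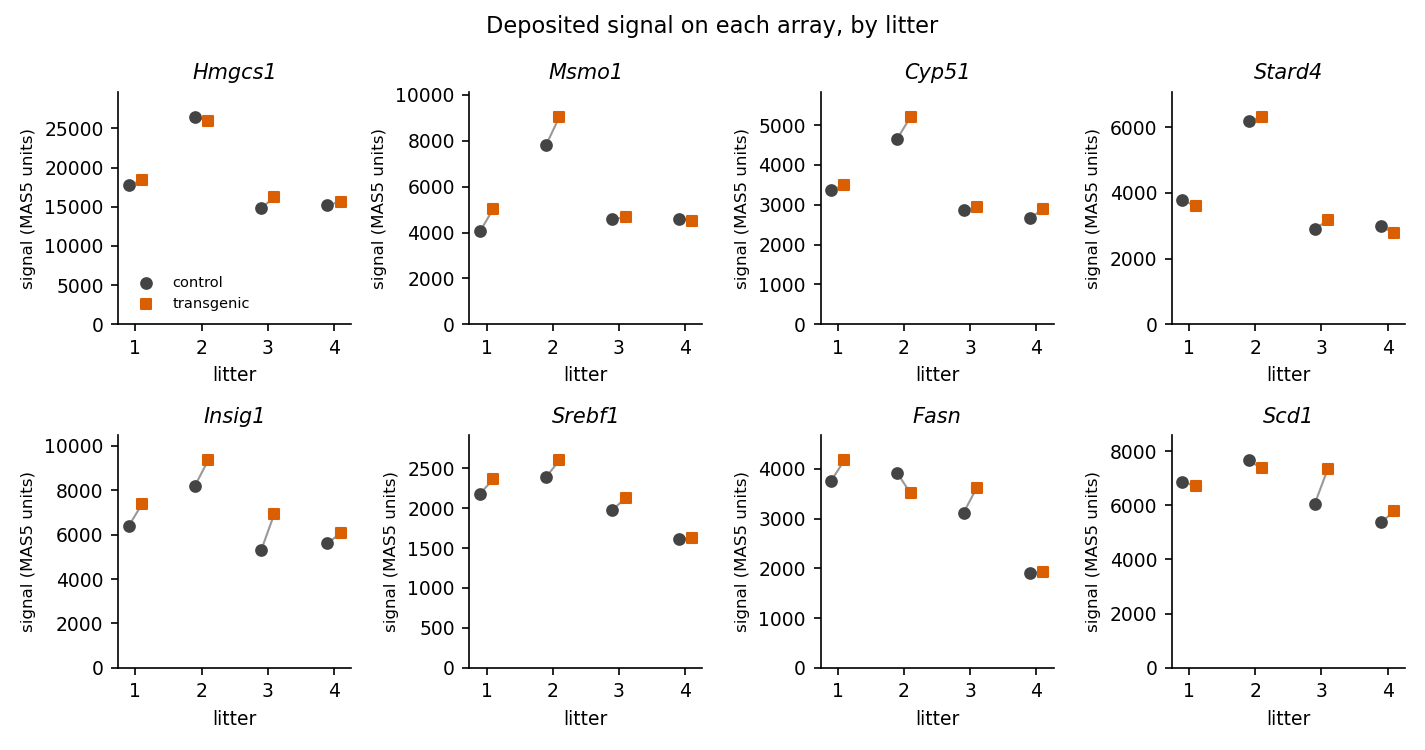
Deposited signal (linear MAS5 units, axes from 0) of 8 genes on each array, by litter; circles are control, squares transgenic, and lines join the samples of a litter. Hmgcs1, Msmo1, Cyp51 and Stard4 stand out in litter 2, Fasn is lowest in litter 4, and Insig1 is higher in the transgenic sample of each litter.

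Litter 2 and litter 4 both weigh on these calls. Without litter 2, 2 of the 30 genes passed, Fasn and Lss (3.91% of all genes), and without litter 4, 10 did (5.42%). Without litter 1, 18 passed (15.1% of all genes), and without litter 3, 14 (5.46%). Other measures moved with the litters too. The summed signal of the 8 chondrocyte markers was 235808 and 203483 in the control and transgenic sample of litter 2. It was 175517 and 175712 in litter 4 and 181348 to 199623 in litters 1 and 3. Of the 8, Acan, Sox9 and Col11a2 passed between litters (37.5%, against 10.9% of all genes). Litter 2 was the highest for 6 of the 8, against 24.5% of all genes. Matn3 was lowest there (16616), and Hapln1 was highest in litter 4 (26744). Of 6 skeletal muscle markers Acta1, Ckm and Tnnt3 passed. Ckm (litter means of 2651, 1338, 1742 and 2519) and Acta1 (8182 there) were lowest in litter 2, but Tnnt3 was lowest in litter 3 (7577). The muscle sum was 21097 and 20951 in litter 2 and 27351 and 26690 in litter 4. It was 19905 and 21084 in litter 3 and 27556 and 26835 in litter 1. The erythroid marker Alas2, lowest in litter 3, and the macrophage marker Csf1r, lowest in litter 4, also passed. Another macrophage marker, Lyz2, was highest in litter 4 (260) and did not pass. The sum of 3 endothelial markers was 454 and 506 in litter 4 and 652 to 818 elsewhere, though none of the 3 passed. Fabp4, the adipocyte marker above the filter, did not pass (limma F-test adjusted p = 0.213). The 5-prime to 3-prime signal ratio, a sign of RNA integrity, was lowest in litter 4, at 1.17 and 1.14 for Gapdh and 0.512 and 0.475 for beta-actin, against 1.26 to 1.36 and 0.590 to 0.647 on the other arrays. The part of these in the litter differences was not tested, and in such bulk samples fewer cells of a type and less RNA per cell cannot be told apart.

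**Figure D3:**
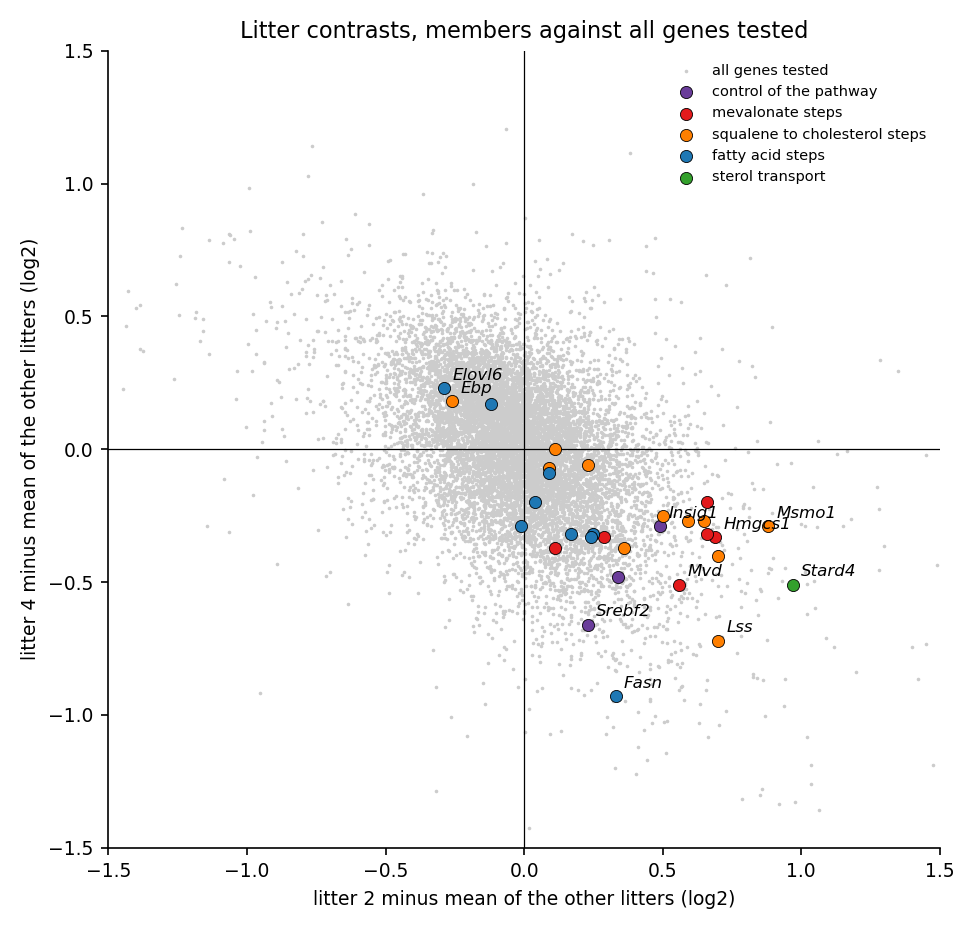
Litter 2 (x axis) and litter 4 (y axis) against the mean of the other litters, in log2 with genotype in the model; coloured points are the 30 genes by role, grey points all genes tested, 15 of which lie outside the axes. Of the 30 genes, 25 lie at the lower right, where 29.3% of all genes lie; both axes use the same arrays, which tilts the grey cloud.

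Genes of neighbouring pathways, from lists chosen with earlier results of these data known, were set beside the set. Of 17 other genes of sterol synthesis and its control that were tested, Mbtps2, a protease that releases SREBP, and Lpin1, a phosphatidate phosphatase, differed between litters (11.8%, limma F-test), against 10.9% of all genes. Lpin1 was highest in litter 2, with litter means of 1321, 1825, 905 and 870 (adjusted p = 0.000872), and Mbtps2 lowest there, at 796 against 921 to 1227 (adjusted p = 0.0316). Scap, which escorts SREBP, Insig2 and Mbtps1 did not pass (adjusted p = 0.322, 0.908 and 0.0796). The median of litter 2 minus the others was -0.10 log2 in this list, 0.31 in the 30 genes and -0.03 over all genes. None of the 5 genes of cholesterol efflux and LXR response passed. Of 22 other genes of fatty acid and glycerolipid synthesis, Lpin1 and Me1, the malic enzyme that supplies NADPH, passed, Me1 being lowest in litter 4 at 2923. Of 10 genes of fatty acid oxidation and storage, Hadhb and Plin2, a coat protein of lipid droplets, passed, and both were highest in litter 4, at 3408 and 2797.

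The second comparison asks whether samples with the Hoxc8 transgene had other levels of these genes. No gene of the set passed between genotypes, and 0 of 10989 genes (0%) passed in either direction (limma, adjusted p = 0.9998 for each of the 30). An unadjusted p under 0.05 was found for 0 of the 30 and for 0.910% of all genes. The groups overlapped for each of the 30 genes, where 0.992% of all genes did not overlap. Fitted ratios of transgenic to control ran from 0.956 to 1.17 with a median of 1.04, and 25 of the 30 were above 1, as were 50.7% of all genes. That count moved when single arrays were left out of this fit, which leaves the litters unevenly split between the genotypes. It was 11 without control replicate 4, 15 without transgenic replicate 2 and 28 without control replicate 2. With a whole litter left out, which keeps the pairs, it was 21, 25, 25 and 26 without litters 1, 2, 3 and 4. The median difference was 0.06 log2 and ranged from -0.01 to 0.18 when an array or litter was left out. Of the 31 other probe sets of these genes, 18 had the genotype sign of the representative probe set, with differences rounded.

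With litter as a block the median SE of the 30 genes dropped from 0.156 to 0.0767 log2, and still 0 of them and 0% of all genes passed (adjusted p = 0.9998). The 95% intervals of all 30 genes then lay within 1.5-fold in either direction, and those of 22 within 1.25-fold. An unadjusted p under 0.05 was found for Insig1 and Idi1, that is 6.67% of the set, against 3.08% of all genes. Insig1 was higher in the transgenic sample of each litter, by 0.21, 0.19, 0.39 and 0.11 log2 in litters 1 to 4, with a fitted difference of 0.22 and an interval with the block from 0.08 to 0.37 (limma, unadjusted p = 0.00647). Idi1 was likewise higher in each litter, by 0.21, 0.21, 0.29 and 0.16 log2, with an interval from 0.07 to 0.36 (unadjusted p = 0.00632). Neither was called after adjustment.

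Within litters, 6 of the 30 genes were higher in the transgenic sample of all 4 litters, against 5.76% of all genes, and 0 were lower in all 4, against 4.93%. The 6 were Insig1, Idi1, Cyp51, Sqle, Srebf1 and Lss. For Srebf1 the differences were 0.11, 0.12, 0.10 and 0.02 log2, and for Sqle 0.11, 0.05, 0.10 and 0.23. By litter, the transgenic sample was higher for 23, 15, 26 and 20 of the 30 genes in litters 1 to 4, where 55.2%, 50.5%, 51.6% and 44.6% of all genes were. The count was highest in litter 3 and lowest in litter 2. Tm7sf2 had the largest fitted difference, 0.23 log2 (SE 0.15), most of it from litter 4, where the 2 samples differed by 0.63. The lowest were Nsdhl and Hsd17b7, at -0.06 each, and Ebp at -0.03. Each of these had differences of both signs, and the sign of Hsd17b7 turned to 0.22 when its probe sets were averaged. Hmgcs1, with the same level in both genotypes of each litter within 0.13 log2, stood at 0.04 (SE 0.19, or 0.06 with the block), and Stard4 at -0.01 (SE 0.26, or 0.07 with the block). Both genes had a smaller SE once litter was in the model.

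**Figure D4:**
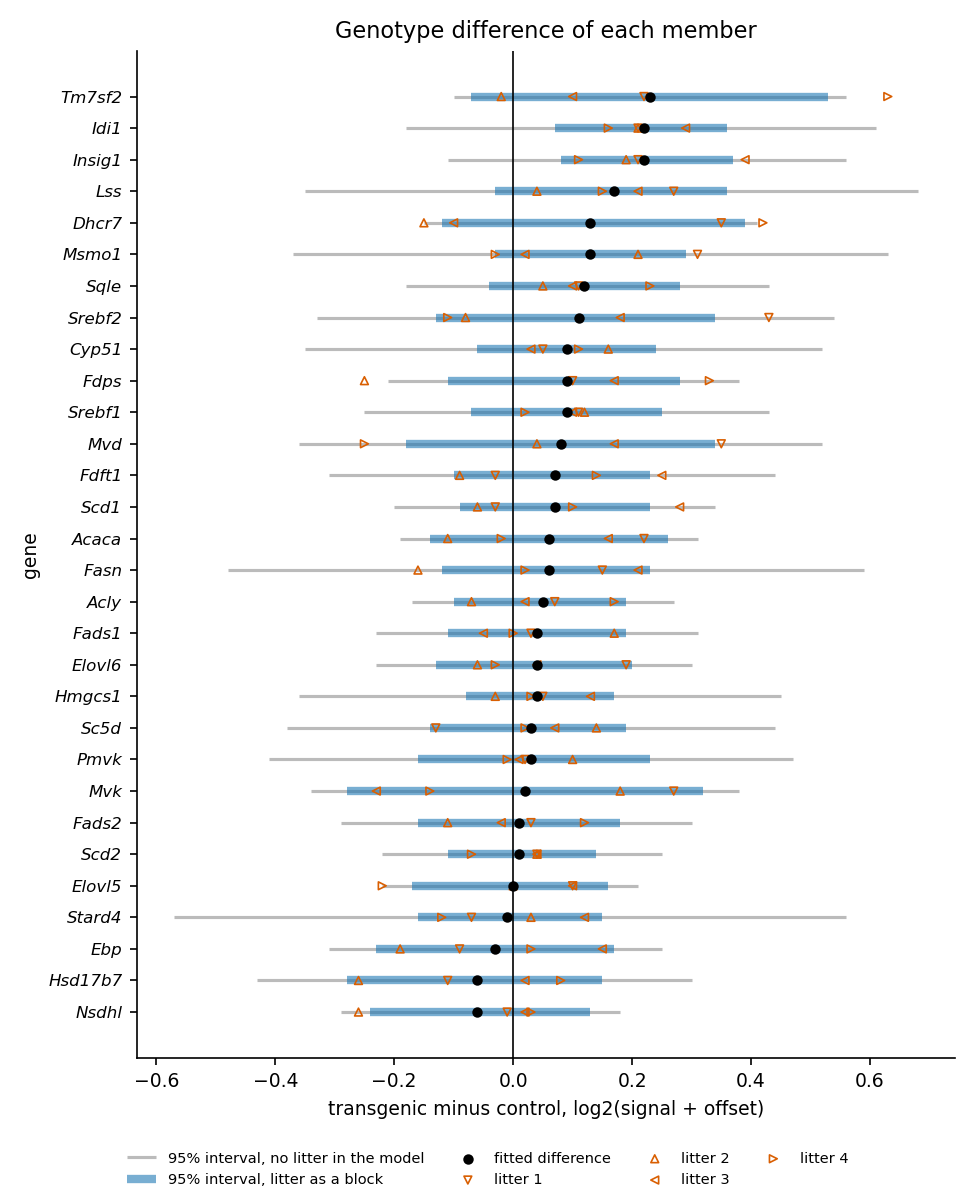
Fitted difference of each of the 30 genes, transgenic minus control on the log2(signal + 22.2) scale (black), with 95% intervals without litter in the model (grey) and with litter as a block (blue); open triangles are the 4 litters. All grey intervals cross 0, and of the blue ones those of Insig1 and Idi1 do not.

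In the neighbouring lists 0 genes passed between genotypes, in either fit. The other genes of sterol synthesis and its control had a median difference of -0.01 log2, with 6 of 17 positive, from Mylip at -0.22 (SE 0.15) to Scap at 0.18 (SE 0.20). The median was 0.01 over 22 other genes of fatty acid and glycerolipid synthesis, from Dgat2 at -0.26 to Elovl4 at 0.29, and -0.04 over 10 genes of fatty acid oxidation and storage. Of 5 genes of cholesterol efflux and LXR response, 4 were negative, with a median of -0.07, and Apoe, which carries lipids in lipoproteins, was the positive one at 0.41 log2 (SE 0.32).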

How the data were processed

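Total RNA of 8 samples was labelled with biotin and hybridised to Affymetrix arrays of 45101 probe sets, per the labels. The authors deposited 1 intensity signal per probe set and array on a linear scale. The submitters' processing notes name MAS5, and no version is at hand. The mean of the deposited signals, trimmed by 2% at each end, was 500 on every array, so each array had been scaled to 1 target before deposit. Detection calls were not used here. Genes were named from the platform annotation of 2016, in which 34945 probe sets have 1 symbol, 932 several and 9160 none, besides 64 control probe sets.

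Signals were transformed as log2(signal + 22.2), the 20th percentile of the deposited values, which understates changes of dim genes. The filter kept the 22519 probe sets whose mean signal reached 110, the median over probe sets. Limma version 3.58.1 in R version 4.3.3 was used (lmFit, eBayes with an intensity trend, two-sided) on all 8 arrays, for genotype without covariates and for litter by F-test with genotype in the model. P-values were adjusted by Benjamini-Hochberg over the 10989 genes, or over probe sets where stated, at a threshold of 0.05. SEs without the block hold differences between litters. The steps were tested on simulated data in which 200 of 22519 probe sets were changed. For genotype, 0% of 1.5-fold and 51.5% of 2-fold changes were recovered without the block. With the block it was 11.5% and 67.5%.

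The labels tie each replicate number to a litter and so pair the samples. Across probe sets, deviations from the genotype mean correlated between the 2 arrays of litters 2, 3 and 4 (r = 0.434, 0.376 and 0.379, each above the highest r with another litter), but not of litter 1 (r = 0.0251, against 0.0630). The genes of the set and the lists were chosen with earlier results of these data known. Named with values on every array are 11 genes fixed by role, the 3 with the largest positive and the 3 with the largest negative genotype difference and the 6 with the smallest p between litters. Alternatives were the litter block, offsets, filters, normalizations, variance models, array weights, averaged probe sets, the litter test without the genotype term and leaving out each array or litter.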

Additional observations from a re-analysis of the deposited data

Results flagged for a closer look

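Within each genotype, the gap between the highest or lowest of the 4 samples and its neighbour was divided by the whole spread of that group. This was done for the 30 genes in both genotypes, 60 groups in all, and 6 samples stood apart at the 95% critical value, where chance gives about 3. All 6 were the highest of their group and came from litter 2. Msmo1 stood at 7819 in control replicate 2 (next 4611) and at 9038 in transgenic replicate 2 (next 5024). In control replicate 2, Idi1 stood at 6034 (next 3908) and Mvd at 778.8 (next 532.8). In transgenic replicate 2, Fdft1 stood at 6601 (next 4805) and Sc5d at 3797 (next 2418). These genes share the litter pattern given above, so the 6 are not separate observations.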

How the results depend on the processing

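Between genotypes, 0 genes passed under each of the 24 alternatives, and with litter as a replicate block the count stayed at 0, the median difference of the set at 0.06 log2 and the genes with a positive difference at 25. Leaving out arrays or litters moved the median to between -0.01 and 0.18 log2 and the count of positive genes to between 11 and 28. It turned signs of small differences, which then ranged from -0.02 to 0.22 for Srebf1, -0.02 to 0.31 for Srebf2, -0.11 to 0.23 for Hmgcs1, -0.02 to 0.09 for Acly, -0.17 to 0.29 for Fasn, -0.01 to 0.16 for Scd1, -0.05 to 0.11 for Scd2, -0.26 to 0.23 for Stard4, -0.16 to 0.09 for Hsd17b7, -0.10 to 0.01 for Nsdhl and -0.09 to 0.07 for Ebp. Averaging probe sets turned Stard4 to 0.01, Scd2 to -0.01 and Hsd17b7 to 0.22, and median centring turned Stard4 to 0.02.

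Between litters, 0 genes and 0 genes of the set passed without an intensity trend, 1 and 0 without moderation, and 788 (4.33% of 18193) and 14 without a filter; the cause was not tested. Leaving out a litter gave 430 to 1659 genes in all, 1659 without litter 1, 430 without litter 2, 600 without litter 3 and 596 without litter 4, and 2 to 18 of the set. Under the other alternatives 14 to 19 of the set passed, with 1106 to 1536 genes called in all (10.1% with quantile normalization at the low end); under the filter of 300 it was 1329 of 8317 genes. With 2 arrays per litter, many differences between litters are beyond these data. In the simulated data the litter test recovered 0% of 1.5-fold, 15.5% of 2-fold and 79.0% of 4-fold changes. There a single litter was shifted in 200 of 22519 probe sets, and the other probe sets held no litter difference. In the data 2027 probe sets passed, so the simulated setting differed and these shares need not hold for the data.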
